A study of Homo sapiens and Mus musculus with 12 samples.

Results

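The mitochondrial genome of mammals encodes 37 genes, and all 37 were listed in the TPM tables of both melanoma lines. They were found as every row whose symbol, written in capitals, starts with MT-, and they comprise 13 mRNAs, 2 ribosomal RNAs (rRNAs) and 22 transfer RNAs (tRNAs). There are 16782 genes listed for A375 and 12711 for Yumm1.7. TPM is the read density of a gene, per length, scaled so that a library sums to 1000000. A gene entered a comparison where its TPM, averaged across the 6 libraries of the line, reached 1, which held for all 37 members, for 12638 genes of A375 and for 10492 genes of Yumm1.7.

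The series profiled ribosome association in A375, a human melanoma line, and Yumm1.7, a mouse melanoma line. Lysate was spun through a sucrose gradient and RNA was sequenced from 3 sources: the input before the gradient, a monosome pool holding the single-ribosome peak with the lighter fractions just before it, and a polysome pool from the bottom of the gradient. Each line was profiled in the states labelled P and S, and the series text names parental cells and drug-tolerant persister cells without saying which letter stands for which. No drug, dose, time or culture condition is given in the labels, and no genetic change of either line. Each of the 12 combinations of line, state and source is 1 library, so no difference below has a replicate check and none carries a test.

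Mitochondrial mRNAs are made and translated inside the organelle by mitochondrial ribosomes, which differ from the cytosolic ribosomes that define monosomes and polysomes in such a gradient. Both strands of the circular genome are transcribed into long precursors, and most mRNAs and rRNAs are released by excision of the tRNAs between them. Of the 13 proteins, 7 belong to complex I, which oxidises NADH, 1 to complex III, which passes electrons to cytochrome c, 3 to complex IV, which reduces oxygen, and 2 to complex V, the ATP synthase. All 4 complexes also need subunits encoded in the nucleus.

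The libraries were made from poly-T selected RNA with random priming and a selection of fragments of 370 to 420 bp, per the labels' protocol, and their depth is unknown because TPM keeps none. The listed genes summed to between 66.6% and 90.1% of 1000000 TPM in A375 and between 84.5% and 94.4% in Yumm1.7, with the lowest sums in the A375 monosome libraries. The median gene itself differed between libraries, by -0.94 on the log2 scale for S against P in Yumm1.7 input and by -1.53 in polysomes, so differences of log2(TPM + 1) are given relative to the median gene of the line. A member is counted as higher or lower where it differed at least 2-fold on that scale. A375 expressed 6 of 8 melanocyte and melanoma markers (MLANA and TYR are not listed), at a summed 259 to 864 TPM. In Yumm1.7 4 of 8 were listed, at a summed 0.571 to 7.21 TPM, and the defining markers SOX10, TYR, DCT and TYRP1 are not among the listed genes. Of 10 fibroblast markers 8 were listed in Yumm1.7, at a summed 19.3 to 69.5 TPM in the P libraries and 329 to 748 TPM in the S libraries. In A375 4 of the 10 were listed, at 1.60 to 17.95 TPM. A leukocyte marker was listed in Yumm1.7 for 1 of 6, at 8.18 to 15.0 TPM in P and 0.356 to 0.849 TPM in S. The remaining marker lists summed to at most 3.36 TPM (leukocyte) and 0.676 TPM (endothelial) in A375 and to at most 1.996 TPM (endothelial) and 3.34 TPM (keratinocyte) in Yumm1.7, whereas 2 keratinocyte markers of A375 summed to 37.4 to 75.3 TPM. The part of these shifts in the differences between P and S below was not tested. In bulk RNA, a change in which cells are present and a change of RNA within each cell cannot be told apart.

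The human genes are laid out without introns and with almost no gaps between bases 577 and 16023 of chromosome M (GRCh38, GENCODE release 29). Of them 12 mRNAs, both rRNAs and 14 tRNAs lie on the heavy-strand transcript. The light-strand transcript carries MT-ND6, which encodes a complex I subunit, and 8 tRNAs. Members differ in ways that bear on how their reads can be counted. In the stretches printed here as examples, MT-ATP8 ends inside MT-ATP6 and MT-ND4L ends inside MT-ND4, each pair being known to share 1 bicistronic mRNA. Capitals mark the 46 and 7 bases that each shares with its partner.
MT-ATP8, chrM:8366-8572, plus strand: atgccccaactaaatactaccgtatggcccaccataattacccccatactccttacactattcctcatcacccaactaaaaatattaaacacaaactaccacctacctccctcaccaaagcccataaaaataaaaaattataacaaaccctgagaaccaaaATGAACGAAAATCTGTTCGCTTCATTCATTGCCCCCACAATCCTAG
MT-ND4L, chrM:10470-10766, plus strand: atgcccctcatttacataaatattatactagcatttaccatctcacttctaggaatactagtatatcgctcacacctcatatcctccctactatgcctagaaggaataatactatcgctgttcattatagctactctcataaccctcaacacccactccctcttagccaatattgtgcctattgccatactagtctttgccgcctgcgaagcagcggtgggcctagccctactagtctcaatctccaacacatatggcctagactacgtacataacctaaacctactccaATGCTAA

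The 3′ ends of the coding sequences matter because the libraries were selected for poly(A). In 6 of the 13 human mRNAs the annotated end leaves 1 or 2 bases of an unfinished codon, which the poly(A) tail is known to complete to a stop codon, and in 7 the last codon is whole. The last 30 bases of 4 mRNAs show both kinds, with capitals for the unfinished or last codon. MT-ND4 and MT-CO3 end on a single base, and MT-CO1 and MT-ND6 end on whole codons.
MT-ND4, chrM:12108-12137, plus strand: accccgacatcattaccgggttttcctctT
MT-CO3, chrM:9961-9990, plus strand: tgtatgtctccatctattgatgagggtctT
MT-CO1, chrM:7416-7445, plus strand: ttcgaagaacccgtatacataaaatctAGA
MT-ND6, chrM:14149-14178, minus strand: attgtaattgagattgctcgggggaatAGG

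The tRNA genes are 59 to 75 bases long in human, well under the selected fragment size. A TPM value at a tRNA gene therefore cannot be told apart from that of longer RNAs that contain it, and it is described here as a level at that gene. The mRNA genes MT-ATP8 (207 bases), MT-ND4L (297) and MT-ND3 (346) are also shorter than the selected fragment size. Their TPM values, including their ratios to other genes, carry the same limit. The sequences of the set on which most of the tRNA results turn are shown with the anticodon in capitals. MT-TH (histidine), MT-TS2 (serine) and MT-TL2 (leucine) abut one another between MT-ND4 and MT-ND5.
MT-TH, chrM:12138-12206, plus strand: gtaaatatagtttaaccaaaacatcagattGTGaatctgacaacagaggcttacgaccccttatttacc
MT-TS2, chrM:12207-12265, plus strand: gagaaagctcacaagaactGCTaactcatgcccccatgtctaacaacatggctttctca
MT-TL2, chrM:12266-12336, plus strand: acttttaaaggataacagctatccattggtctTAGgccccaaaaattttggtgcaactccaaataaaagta

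The 3 classes moved through the gradient differently. In A375 P the mRNAs took 9.30% of TPM in input, 23.7% in monosomes and 1.87% in polysomes, and the tRNA genes took 1.25%, 2.52% and 0.306%. In Yumm1.7 P the corresponding shares were 8.76%, 13.4% and 1.74% for the mRNAs and 0.855%, 1.67% and 0.152% for the tRNA genes. In P of both lines, therefore, the monosome library was the richest and the polysome library the poorest in both classes. The rRNA genes were most depleted in P polysomes, at 0.0565% of TPM in A375 and 0.00942% in Yumm1.7, against 2.74% and 0.241% in input. In S the polysome libraries held more of every class than in P. The mRNAs reached 5.70% in A375 S polysomes and 18.4% in Yumm1.7 S polysomes, the latter close to the 17.0% of input. In A375 P polysomes 8 of the 13 mRNAs were among the 100 genes with the highest TPM, and 12 were in S polysomes. In Yumm1.7 polysomes that number was 2 in P and 11 in S. One class stood apart in a single library, the rRNA genes in A375 S monosomes at 24.8%.

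**Figure D1:**
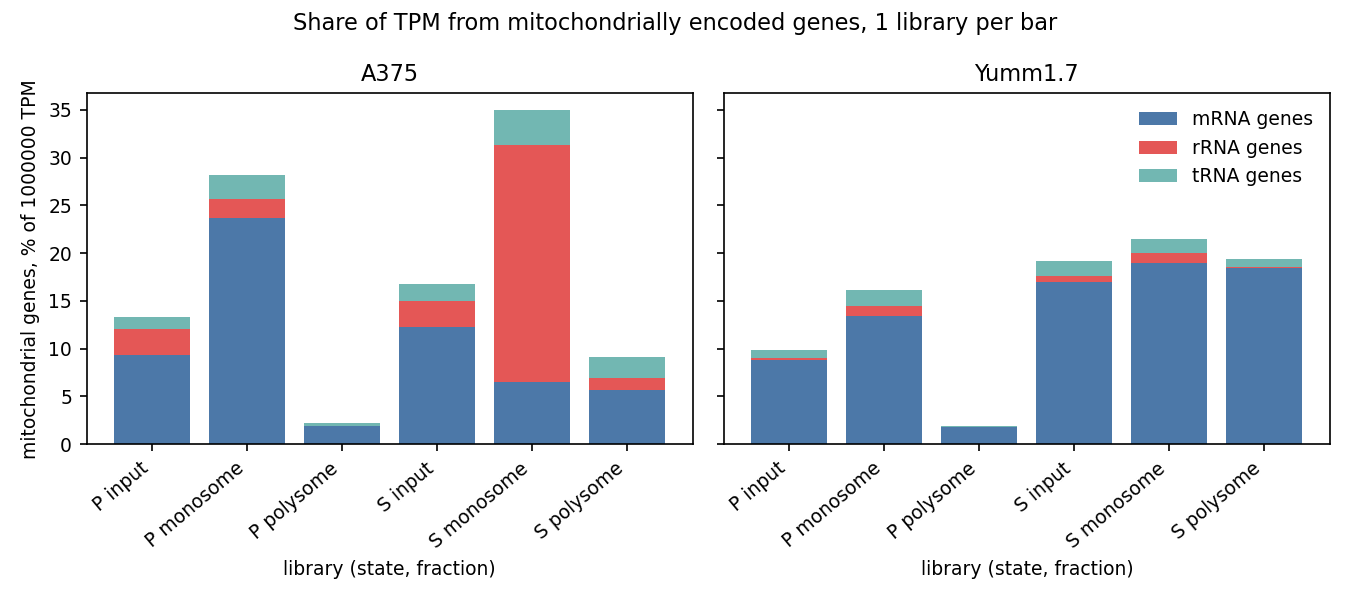
Stacked bars give the percent of 1000000 TPM (vertical axis) taken by mitochondrial mRNA, rRNA and tRNA genes in each of the 6 libraries of A375 (left) and Yumm1.7 (right), 1 library per bar. The P polysome bars are the lowest of each line, and the rRNA part is large only in A375 S monosomes.

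In P every mitochondrial gene was scarcer in polysomes than in input, in both lines. All 13 mRNAs were at least 2-fold lower relative to the median gene, with a median of -2.38 in A375, where 10.3% of all genes tested were that much lower, and of -2.97 in Yumm1.7, where 4.81% were. None was 2-fold higher, against 0.926% and 1.48% of all genes. The A375 mRNAs lay close together, between -2.74 (MT-ND4) and -1.83 (MT-ND5). In Yumm1.7 they ranged from -4.02 (mt-Atp6) to -1.16 (mt-Nd4l). Both rRNAs and all 22 tRNA genes were also at least 2-fold lower in each line.

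Set against monosomes, the mRNA medians of P polysomes were lower than against input, though only slightly in Yumm1.7. MT-ND5 in A375 and mt-Nd4l, mt-Nd5 and mt-Nd6 in Yumm1.7 were instead less depleted than against input. The median mRNA stood at -4.12 in A375, with 13 of 13 lower against 20.8% of all genes, and at -3.10 in Yumm1.7, with 12 of 13 lower against 13.4%. None was 2-fold higher, against 19.1% and 14%. The mRNA outside that count was mt-Nd4l, which encodes a small complex I subunit, at -0.80. MT-CO2 (-5.89) was the lowest in A375 and mt-Nd1 (-5.43) in Yumm1.7, while MT-ND5, the longest of the mRNAs and also of complex I, was the least depleted in A375 at -1.43. Noncoding host genes of small nucleolar RNAs, which are nuclear genes, had medians of -4.43 in A375 (13 of 13 lower) and -2.65 in Yumm1.7 (11 of 11 lower). Nuclear genes of the same respiratory complexes had medians of -0.04 and 0.57.

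The step from input to monosomes differed between the lines in P. In A375 P 10 of 13 mRNAs were at least 2-fold higher in monosomes than in input (median 1.99, against 8.5% of all genes). In Yumm1.7 P 4 of 13 were (median 0.34, against 7.08%), namely mt-Nd1, mt-Co1, mt-Co2 and mt-Co3. Relative to the median nuclear gene of the respiratory complexes instead of the median gene, the Yumm1.7 median was 1.28 and 9 were higher.

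In S the mRNA medians between monosomes and polysomes lay within 2-fold of the median gene. In A375 S the median was -0.53, with 6 of 13 lower against 16.7% of all genes and MT-ATP8 the 1 gene higher, against 20.8%. In Yumm1.7 S it was 0.51, with 6 of 13 higher against 13.2% and mt-Nd6 the 1 gene lower, against 10.9%. The A375 value depends on which genes are taken, since without the overlapping or antisense MT-ATP8, MT-ND4L and MT-ND6 the median was -1.11, and the 6 lower genes became 2 as deposited and 3 with no filter on low values. Relative to the median nuclear gene of the respiratory complexes, 3 rather than 6 of the Yumm1.7 mRNAs were higher. The sign of each median also changed with the scaling. The median gene of A375 S stood at 0.67 as deposited, and the median nuclear respiratory gene of Yumm1.7 S at 1.41 relative to the median gene. Against input, 8 of 13 A375 mRNAs were still lower in S polysomes (median -1.13, against 9.46% of all genes) and 3 of 13 Yumm1.7 mRNAs were higher (median 0.31, against 8.93%). Those 3 were mt-Co1, mt-Atp8 and mt-Nd4l, with mt-Nd5 just under the 2-fold line. Between monosomes and input of S, MT-ATP8 (-2.54) was the 1 lower mRNA of A375 against 9.28% of all genes (median -0.30), and 6 were lower in the values as deposited. In Yumm1.7 mt-Nd2 and mt-Nd6 were the 2 higher mRNAs, at 1.07 and 1.05, against 5.93% (median -0.05), and the 3 complex IV mRNAs were lower, against 6.71%.

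The change of the polysome-to-monosome ratio between the states was large and had one direction. Relative to the median gene it was at least 2-fold higher in S than in P for 13 of 13 mRNAs in A375 (median 3.75, against 13.1% of all genes) and for 13 of 13 in Yumm1.7 (median 3.90, against 17.3%). The smallest value was that of mt-Nd6, at 1.09, and it turned to -0.33 in the values as deposited with no centring. The host genes of small nucleolar RNAs moved the same way. Their median was 0.996 in A375 (6 of 13 higher, 0 lower) and 2.32 in Yumm1.7 (9 of 11 higher, 0 lower). Nuclear genes of the respiratory complexes had medians of 0.24 (6 of 75 higher, 1 lower) and 0.83 (28 of 72 higher, 2 lower). The A375 count of higher genes was below the share of all genes. Shares of all genes at least 2-fold lower were 7.88% and 12.6%. Nuclear genes of mitochondrial gene expression, described below, had medians of -0.17 (3 of 76 higher, 8 lower) and -0.11 (8 of 75 higher, 12 lower). The direction was therefore shared by the host genes, whose medians were smaller than those of the mitochondrial mRNAs, but not by every nuclear list. The change of this ratio shares its libraries with the comparisons above and is not separate support for them. The plot of the polysome-to-monosome difference shows the spread among the mitochondrial mRNAs.

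**Figure D2:**
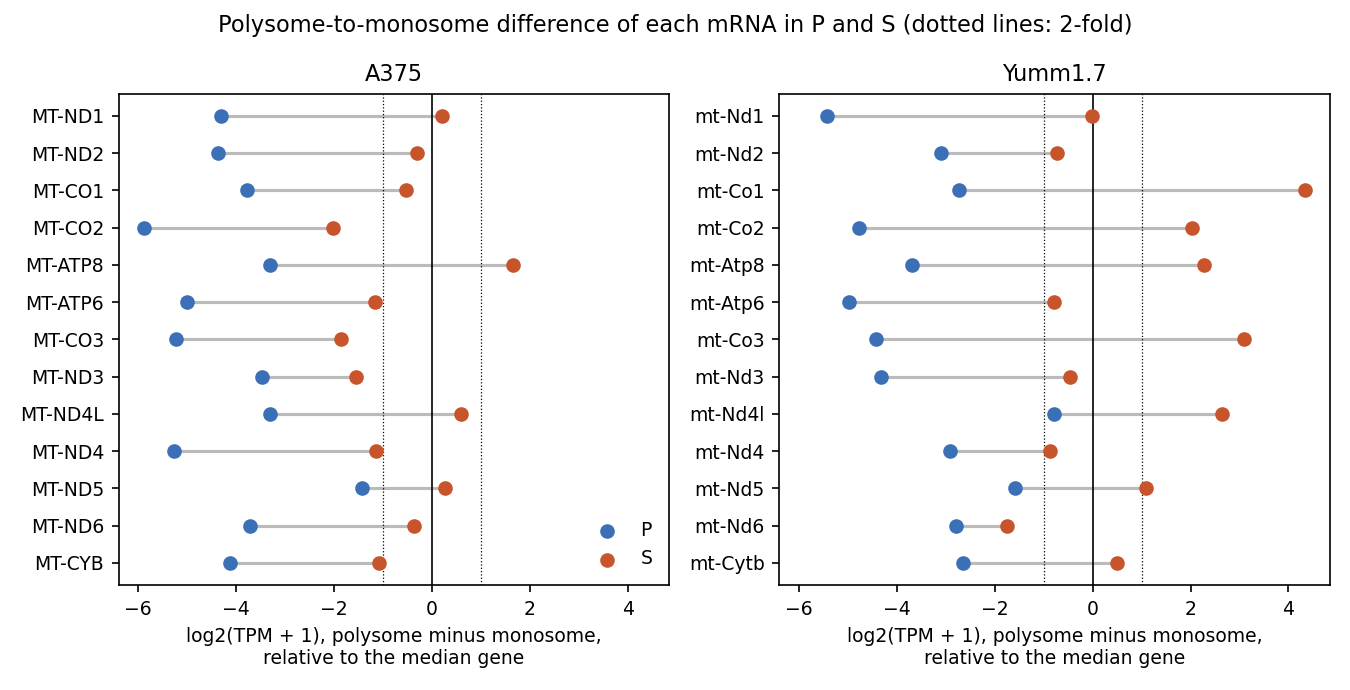
Each row is a mitochondrial mRNA and each point its log2(TPM + 1) in polysomes minus monosomes relative to the median gene (horizontal axis), for P (blue) and S (orange) of A375 (left) and Yumm1.7 (right), with dotted lines at 2-fold. Every S point lies to the right of its P point, and in Yumm1.7 mt-Co1, mt-Co3, mt-Nd4l, mt-Atp8, mt-Co2 and mt-Nd5 lie past 2-fold on the right in S.

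Between the states, most of the mRNAs were higher in S polysomes in both lines. In S polysomes 12 of 13 A375 mRNAs were at least 2-fold higher than in P polysomes (median 1.45, against 16.5% of all genes), with MT-ATP8 at 0.74 the exception, and 13 of 13 were in Yumm1.7 (median 5.00, against 24.1%). The 12 of A375 are necessarily among the 13 of Yumm1.7, so that overlap is not further support. In A375 the median was 0.80 and the count 6 when set against the nuclear genes of the respiratory complexes, which were themselves higher in S polysomes. In Yumm1.7 S polysomes the fibroblast markers summed to 366 TPM, against 69.5 TPM in P, and the part of that difference in the mRNA values was not tested.

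Input and monosomes differed between the lines. In input 2 of 13 A375 mRNAs were higher in S (median 0.50, against 15.6% of all genes), MT-ND1 and MT-ND6. In Yumm1.7 input 9 of 13 were higher (median 1.30, against 23.1%), but the median was 0.37 in the values as deposited, 0.65 after rescaling to genes outside the mitochondrial genome and 0.58 relative to the nuclear respiratory genes, each under 2-fold. In monosomes 9 of 13 A375 mRNAs were lower in S (median -1.91, against 13.2%). In Yumm1.7 monosomes 6 were higher, against 25.4%, and 2 were lower, against 24%, with a median of 0.05.

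The complex IV mRNAs encode the catalytic core of cytochrome c oxidase. MT-CO1 carries the haem and copper site where oxygen is reduced. It stood at 12723 TPM in the input, 22491 TPM in the monosome and 3387 TPM in the polysome library of A375 P, and at 17806, 10755 and 11835 TPM in those of S. In Yumm1.7, mt-Co1 stood at 9250.2, 16240.1 and 4592 TPM in P and at 11929, 1815 and 26575 TPM in S. Its polysome-to-monosome order thus turned round in Yumm1.7, with monosomes the lowest library of S and the second highest of all 6 in P. MT-CO2, which takes electrons from cytochrome c, stood at 12791, 61622 and 2153 TPM in A375 P and at 15783, 11679 and 4549 TPM in S, and mt-Co2 at 10169.9, 20889.9 and 1436 TPM in Yumm1.7 P and 25944, 9884 and 29315 TPM in S. MT-CO3, the third core subunit, followed the same course, at 15977, 47626 and 2646 TPM in A375 P and 14695, 10578 and 4608 TPM in S, and mt-Co3 at 7634, 16052 and 1415 TPM in Yumm1.7 P and 20746, 4310.4 and 26622 TPM in S.

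In Yumm1.7 S the complex IV mRNAs were the most reduced of the mitochondrial mRNAs in monosomes against input. Relative to the median gene they were lower in monosomes than in input, by -3.07 for mt-Co1, -1.75 for mt-Co2 and -2.62 for mt-Co3, and these were the 3 mRNAs at least 2-fold lower there, against 6.71% of all genes. The TPM of mt-Atp8 and mt-Nd4l was also lowest in monosomes and highest in polysomes of S. Their monosome values against input were -0.76 and -0.89, within 2-fold, and polysomes against monosomes gave 2.27 and 2.65. Within all mitochondrial mRNA, which does not depend on the scaling of the library, complex IV took 34.4% in input, 8.45% in monosomes and 44.7% in polysomes. Complex I took 32.4%, 49.4% and 23.8% in the same libraries. In Yumm1.7 P complex IV had taken 30.9%, 39.5% and 42.8%. The A375 S libraries did not show that course, with complex IV at 39.5%, 50.4% and 36.9% of mitochondrial mRNA. The polysome-to-monosome difference in S was -2.03 for MT-CO2 and -1.87 for MT-CO3 in A375 and 2.03 and 3.09 for their mouse counterparts, and this difference between the lines was not tested. The nuclear complex IV genes of Yumm1.7 S had a median of 1.28 for the same difference, with 7 of 11 higher, beside 13.2% of all genes. That was not particular to complex IV, since the nuclear genes of complexes I, III and V had medians of 1.62, 0.68 and 1.25.

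**Figure D3:**
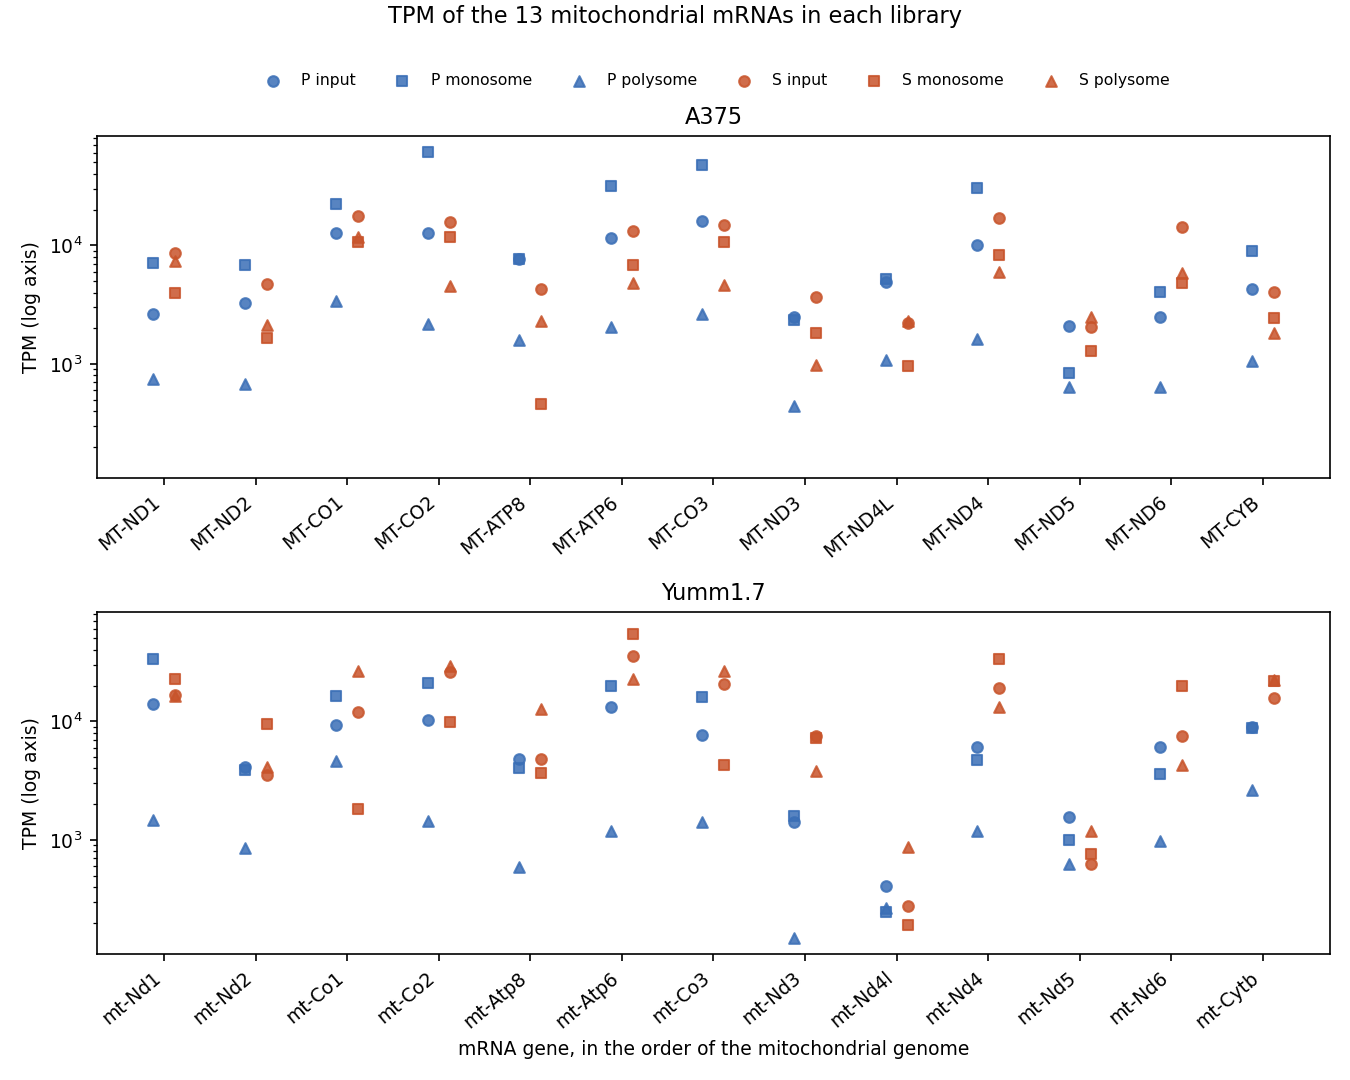
Each column is a mitochondrial mRNA in genome order and each point its TPM (log axis) in 1 library, with blue for P and orange for S and circles, squares and triangles for input, monosome and polysome, in A375 (top) and Yumm1.7 (bottom). Blue triangles are the lowest of the 3 P points for every mRNA except mt-Nd4l. In Yumm1.7 the orange squares of the 3 complex IV genes, mt-Atp8 and mt-Nd4l lie below their circles and triangles. Those of mt-Atp6, mt-Nd1, mt-Nd2, mt-Nd4 and mt-Nd6 lie above.

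Complex V is represented by MT-ATP6, a proton channel subunit, and MT-ATP8, a short subunit of the same membrane part. MT-ATP6 stood at 11610.3, 31698 and 2039 TPM in input, monosomes and polysomes of A375 P and at 13208, 6808 and 4811 TPM in S. In Yumm1.7 it stood at 13303, 19922 and 1196 TPM in P and at 35770, 54515 and 22898 TPM in S, the highest mitochondrial mRNA of S input and S monosomes. MT-ATP8 stood at 7715, 7620.3 and 1587 TPM in A375 P and at 4294, 457 and 2287 TPM in S, so that its S monosome value was the lowest of any mitochondrial mRNA in that library. The mouse gene stood at 4762, 4065 and 591 TPM in P and at 4829, 3645 and 12785 TPM in S.

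The overlapping pairs kept 1 order in both lines and both states. The TPM of MT-ATP8 over that of MT-ATP6 was 0.240 in monosomes, 0.664 in input and 0.778 in polysomes of A375 P, and 0.0672, 0.325 and 0.475 in those of S. In Yumm1.7 it was 0.204, 0.358 and 0.495 in P and 0.0669, 0.135 and 0.558 in S. The ratio was thus lowest in monosomes and highest in polysomes in 4 of 4 combinations of line and state. MT-ND4L over MT-ND4, the complex I pair, had the same order in 4 of 4, at 0.172, 0.488 and 0.669 in A375 P, 0.116, 0.130 and 0.384 in A375 S, 0.0519, 0.0670 and 0.226 in Yumm1.7 P and 0.00572, 0.0145 and 0.0656 in Yumm1.7 S. In both pairs the shorter frame is the upstream one, so frame length and position cannot be told apart here. Reads over the shared bases can be assigned to either gene, and the shorter human frames are under the selected fragment size.

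Another ratio compared genes that do not overlap. MT-ND5 over MT-ND4, neighbours separated by the 3 tRNA genes printed above, was 0.0277 in monosomes, 0.210 in input and 0.396 in polysomes of A375 P and 0.210, 0.255 and 0.531 in Yumm1.7 P. In Yumm1.7 S it was 0.0229, 0.0323 and 0.0891. A375 S was the exception to the order, with 0.157 in monosomes above 0.120 in input and 0.415 in polysomes. The polysome library had the highest ratio in 4 of 4.

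**Figure D4:**
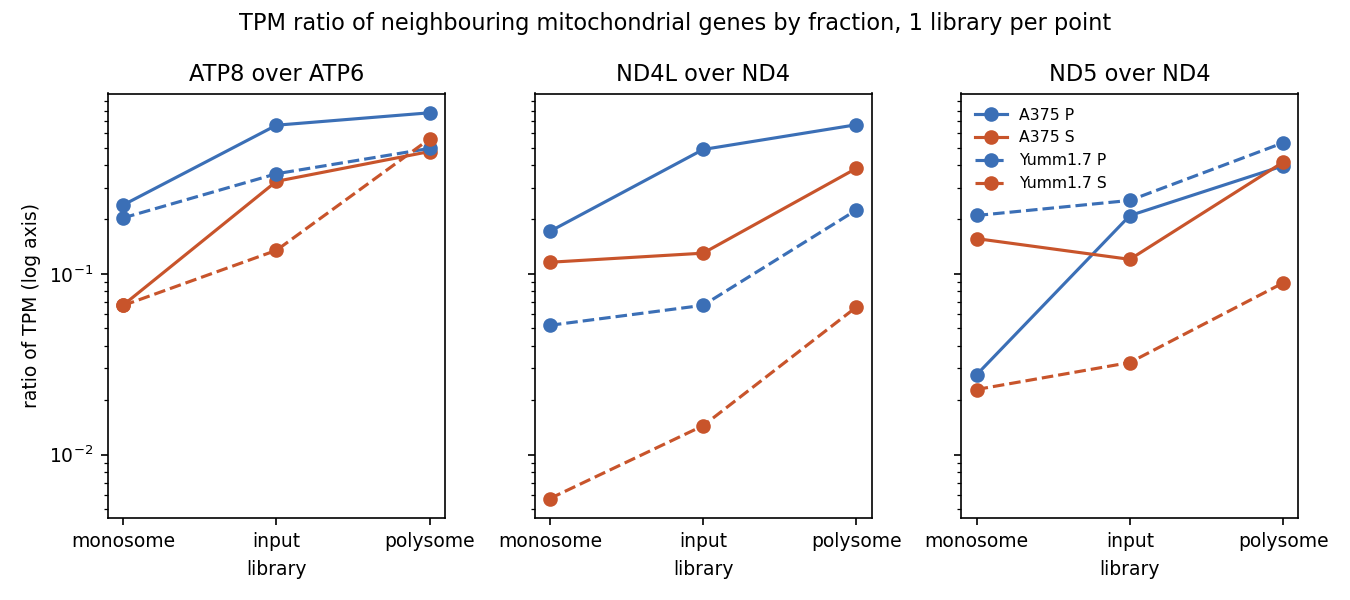
Each panel gives the TPM ratio (log axis) of a pair of mitochondrial genes in the monosome, input and polysome library, with solid lines for A375, dashed lines for Yumm1.7, blue for P and orange for S. The ATP8 over ATP6 and ND4L over ND4 lines rise from monosome to polysome in all 4 combinations, and ND5 over ND4 does so in 3.

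Complex I holds the remaining heavy-strand subunits apart from cytochrome b. MT-ND1, a membrane subunit near the quinone site, stood at 2637, 7136 and 740 TPM in input, monosomes and polysomes of A375 P and at 8613, 3971 and 7319 TPM in S. Its S minus P difference of 1.91 in input and 3.51 in polysomes was the highest among the 12 heavy-strand mRNAs of that line. In Yumm1.7, mt-Nd1 was the most abundant mitochondrial mRNA of P input and P monosomes, at 14086 and 33527 TPM, and stood at 1468 TPM in P polysomes and at 16600, 22739 and 16246 TPM in S. MT-ND4, a proton-pumping subunit, stood at 10014, 30208 and 1617 TPM in A375 P and at 16969, 8247 and 5946 TPM in S. The mouse gene stood at 6076, 4712 and 1177 TPM in P and at 19190.0, 33422 and 13289 TPM in S. Its monosome level was therefore higher in S than in P by 3.04 in Yumm1.7 and lower by a log2 difference of -1.91 in A375.

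The other complex I members differed in level between the lines. MT-ND2, another proton pump, stood between 679 and 6798 TPM in A375 and, in Yumm1.7, between 855 and 9412 TPM. MT-ND3, a short subunit of the membrane arm, stood at 2485, 2347 and 441 TPM in A375 P and at 3650, 1828 and 988 TPM in S, and mt-Nd3 at 1410, 1577 and 148 TPM in Yumm1.7 P and 7520, 7243 and 3801 TPM in S. That gave mt-Nd3 the highest S minus P difference of the Yumm1.7 mRNAs in input (3.35) and in polysomes (6.21). MT-ND5, the third pump, was the flattest of the mRNAs across sources, between 640 and 2468 TPM in A375 and between 620 and 1549 TPM in Yumm1.7. MT-ND4L was well expressed in A375 (956 to 5190.3 TPM) and was the lowest mitochondrial mRNA of 5 of the 6 Yumm1.7 libraries (191 to 871 TPM), the exception being P polysomes, where mt-Nd3 was lowest.

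Cytochrome b, the complex III subunit, stood at 4321, 8896 and 1056 TPM in input, monosomes and polysomes of A375 P and at 4051, 2449 and 1840 TPM in S. In Yumm1.7 it stood at 8862, 8773 and 2628 TPM in P and at 15794, 21701 and 22372 TPM in S. It made up 3.23% to 5.64% of mitochondrial mRNA in A375 and 6.52% to 15.1% in Yumm1.7, and took its highest share in P polysomes in both lines.

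Genes of the light strand were described apart because MT-ND6 is antisense to the heavy-strand transcript and is known to lack a stable poly(A) tail in human cells. MT-ND6 stood at 2481, 4043 and 638 TPM in input, monosomes and polysomes of A375 P and at 14383, 4788 and 5889 TPM in S. Its S minus P difference in input, 2.73, was the highest of all 37 members in A375, and that of MT-TE, the glutamate tRNA gene next to it on the same strand, was 2.53. In Yumm1.7, mt-Nd6 stood at 6035, 3613 and 983 TPM in P and at 7491, 19862 and 4315 TPM in S, so its largest S level was in monosomes. MT-ND6 over MT-ND5, which lie on opposite strands and abut at their 3′ ends, took values of 0.997 to 7.04 across the A375 libraries and of 1.57 to 25.9 across those of Yumm1.7. Whether the authors' quantification used strand is not given in the sources used here, and without it reads from a gene and its antisense partner cannot be told apart.

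The light-strand tRNA genes were higher in S input in both lines more often than the heavy-strand ones. In A375 7 of 8 light-strand and 2 of 14 heavy-strand tRNA genes were at least 2-fold higher, with medians of 1.18 and -0.72, and in Yumm1.7 7 of 8 and 4 of 14 were, with medians of 2.32 and -0.21. The shares of all genes were 15.6% and 23.1%, as given above. Neighbouring tRNA genes, such as MT-TA, MT-TN, MT-TC and MT-TY, can share reads, so these counts are not of separate measurements. The exceptions on the light strand were MT-TQ (-0.35) in A375 and mt-Tp (-1.97) in Yumm1.7. In monosomes against input of P, 7 of 8 light-strand and 3 of 14 heavy-strand tRNA genes were higher in A375 (medians 2.22 and -0.01), beside 8.5% of all genes. In Yumm1.7 6 of 8 and 6 of 14 were (medians 1.53 and 0.52), beside 7.08%. The tRNA gene with the highest mean over the 6 libraries in each line, MT-TS1 (a serine tRNA gene on the light strand just past the end of MT-CO1), stood at 2338, 9180 and 536 TPM in input, monosomes and polysomes of A375 P and at 4090.2, 10117 and 2524 TPM in S. In Yumm1.7 it stood at 2982, 4195 and 537 TPM in P and at 5992, 1971 and 5620.2 TPM in S, with monosomes the lowest of the 3 S libraries, as for its neighbour mt-Co1.

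The spread of values within sets of neighbouring tRNA genes was described set by set. MT-TA, MT-TN, MT-TC and MT-TY, for alanine, asparagine, cysteine and tyrosine, lie in a row on the light strand between MT-ND2 and MT-CO1. Across 10 comparisons the spread among these 4 genes, highest minus lowest, had a median of 0.35 log2 units in A375 and 0.53 in Yumm1.7. Their summed TPM was 4167 in input, 10031 in monosomes and 849 in polysomes of A375 P and 8157, 19234 and 11650 in those of S. For MT-TH, MT-TS2 and MT-TL2 the median spread was 0.57 and 0.52, and for MT-TG and MT-TR, the glycine and arginine genes on either side of MT-ND3, it was 0.25 and 1.05. Other neighbours parted more. The genes before and after MT-RNR1 had a median spread of 1.15 in A375 and 2.59 in Yumm1.7, those after cytochrome b, which lie on opposite strands, 0.90 and 1.25, and the 3 between MT-ND1 and MT-ND2 0.63 and 1.27. A spread depends on the number of genes in a set, so sets of different size are not compared. The members of a set share the reads of any longer RNA that spans them, so they are not separate measurements.

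The MT-TH, MT-TS2 and MT-TL2 set did not follow the mRNAs on either side of it. MT-TH stood at 498 TPM in input, 51.6 TPM in monosomes and 165 TPM in polysomes of A375 P, and at 52.0, 251 and 312 TPM in those of S. In P monosomes against input the set was at -2.71 to -2.30 relative to the median gene, while its neighbour MT-ND4 was at 2.54 and MT-ND5 at -0.38. In S the same comparison gave 2.59 to 3.46, and the S minus P difference in input was -3.72 to -3.004. MT-TG and MT-TR behaved alike in A375 P, at -2.11 and -2.43 in monosomes against input. These 5 were the tRNA genes at least 2-fold lower there, against 11.6% of all genes. In Yumm1.7 P the set was again lower in monosomes, at -1.77 to -1.32, and mt-Tr was at -1.70. These 4 were the tRNA genes at least 2-fold lower there, against 12% of all genes. Between polysomes and monosomes of P the set was near the median gene in both lines (0.23 to 0.85 in A375, 0.13 to 0.37 in Yumm1.7). In each line 17 of 22 tRNA genes were at least 2-fold lower, against 20.8% of all genes in A375 and 13.4% in Yumm1.7.

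In Yumm1.7 mt-Th stood at 158, 49.0 and 102 TPM in input, monosomes and polysomes of P and at 47.3, 32.7 and 21.6 TPM in those of S. Relative to the median gene the set differed by less than 2-fold between S and P, with medians of -0.35 in input, -0.72 in monosomes and -0.00 in polysomes. In monosomes against input of S it was at -2.29 to -0.88, and its opposite direction in A375 was not tested. Between polysomes and input of S 10 of 22 tRNA genes of Yumm1.7 were lower, against 8.59% of all genes, whereas in A375 3 were lower, against 9.46%, and 6 higher, against 10.5%. In A375 some nuclear noncoding RNAs were also scarce in P monosomes and abundant in S monosomes. MALAT1 stood at 219, 11.8 and 11.1 TPM in P and at 31.7, 401 and 341 TPM in S. RMRP, the RNA component of RNase MRP, stood at 48.1 and 1.63 TPM in input and monosomes of P and at 7.07 and 56.8 TPM in those of S, and was listed at 0 in both polysome libraries. NEAT1 did not, at 257, 145 and 77.1 TPM in P and 57.9, 40.9 and 29.5 TPM in S. The part of nuclear RNA in the tRNA values was not tested.

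In S polysomes against P polysomes 21 of 22 tRNA genes were at least 2-fold higher in A375 (median 2.67) and 15 of 22 in Yumm1.7 (median 2.68), beside 16.5% and 24.1% of all genes. All 8 light-strand genes were in both lines. The 14 heavy-strand genes of Yumm1.7 had a median of 1.31, which turned to -0.23 in the values as deposited and to -0.38 relative to the nuclear respiratory genes, so no direction is given for them. MT-TL1, the leucine tRNA gene between MT-RNR2 and MT-ND1, had the highest change of the polysome-to-monosome difference between states in A375 at 6.58, and in Yumm1.7 it was at 6.72. In the same A375 comparison 3 tRNA genes were lower, MT-TF, MT-TH and MT-TS2, against 7.88% of all genes. MT-TL1 stood at 616, 1694 and 179 TPM in A375 P and at 1958, 496 and 4138 TPM in S, but in Yumm1.7 at 898, 4695 and 85.9 TPM in P and 96.9, 189 and 138 TPM in S.

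**Figure D5:**
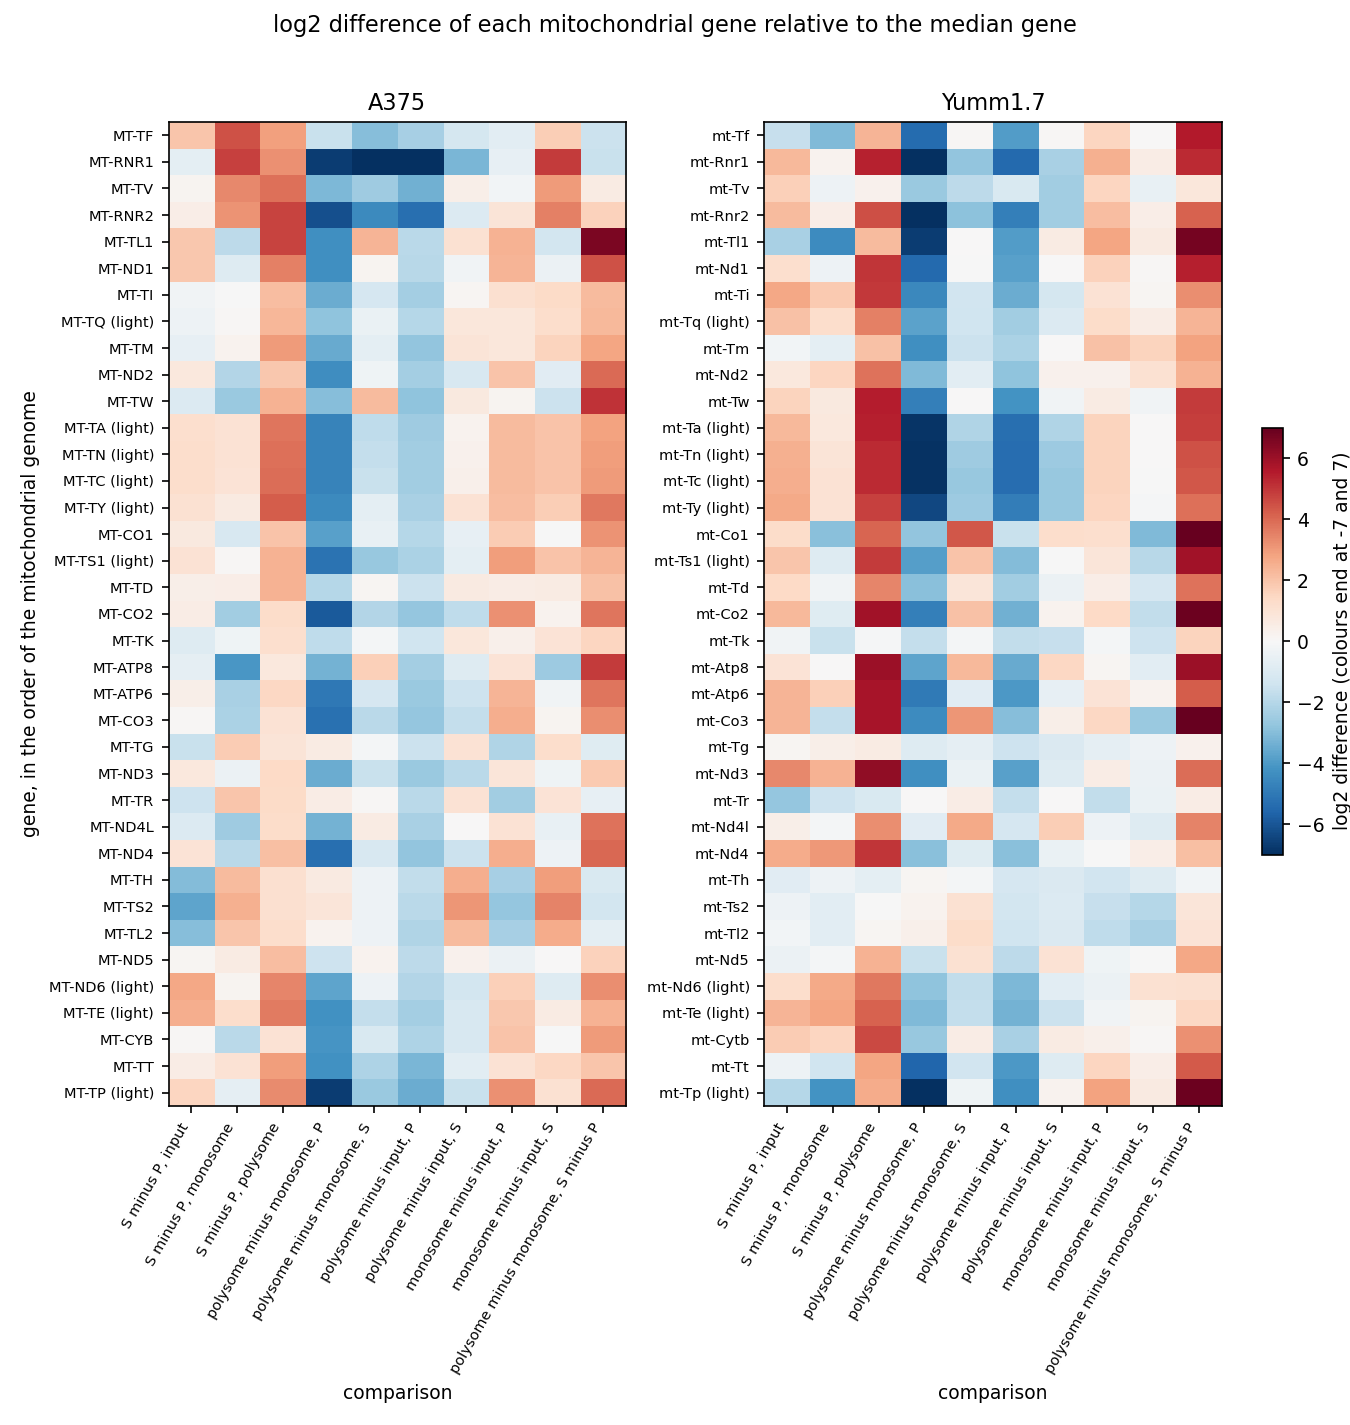
Each row is 1 of the 37 mitochondrial genes in genome order, with light-strand genes marked, and each column a comparison, for A375 (left) and Yumm1.7 (right); colour gives the log2 difference relative to the median gene, red for higher and blue for lower. The 4 light-strand tRNA genes before CO1 share their colours, as do TH, TS2 and TL2 in most columns, and the column of polysome minus input in P is blue for all 37 genes.

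The rRNAs form the small (MT-RNR1) and large (MT-RNR2) subunits of the mitochondrial ribosome and carry short tails. In A375 P MT-RNR1 stood at 9298 TPM in input, 3202 TPM in monosomes and 65.1 TPM in polysomes, and MT-RNR2 at 18127, 17356 and 499.7 TPM. In A375 S they stood at 4954, 92135 and 533 TPM and at 22163, 156088 and 11438 TPM. The S monosome library was thus the highest for both, 4.91 and 3.51 above S input relative to the median gene, where 4.99% of all genes were at least 2-fold higher. The log2 ratio of summed rRNA to summed mRNA TPM was 1.92 in that library and between -5.05 and -1.76 in the other 5 of A375. The mRNAs had a median of -0.30 against S input in that library. It was also the library with the highest MALAT1 (401 TPM) and RMRP (56.8 TPM), and its listed genes summed to 71.9% of 1000000 TPM. The part of either in the rRNA values was not tested.

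In Yumm1.7 mt-Rnr1 stood at 1674, 7509.6 and 55.8 TPM in input, monosomes and polysomes of P and at 4209, 7779.9 and 835 TPM in S, and mt-Rnr2 at 734, 2622 and 38.4 TPM and at 1755, 3149.6 and 309 TPM. Monosomes were the highest library in both states of this line. The log2 ratio of rRNA to mRNA lay between -7.53 and -3.73, lowest in polysomes of P and S. The balance of the subunits also differed between the lines, with MT-RNR1 over MT-RNR2 at 0.0466 to 0.590 in A375 and 1.45 to 2.86 in Yumm1.7. Between the states, the polysome-to-monosome difference of MT-RNR1 was -1.54 in A375 and 5.25 in Yumm1.7, and this difference between the lines was not tested.

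Distance from the heavy-strand promoter was compared with the values of the 12 heavy-strand mRNAs as a description only, since the genes share libraries and transcripts. Human gene starts were used for both lines, whose mitochondrial gene order is the same. For levels in input the Spearman rho was -0.20 (Pearson r -0.07) in P and -0.45 (-0.39) in S of A375, and -0.46 (-0.36) and -0.17 (-0.22) in Yumm1.7. For monosomes against input of P it was -0.27 (-0.36) and -0.59 (-0.56), and for the change of the polysome-to-monosome difference -0.50 (-0.51) and -0.47 (-0.39). All are across 12 genes of the same libraries, and none is read as a trend.

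Nuclear genes that make and handle mitochondrial RNA were more often lower than higher in S input. Of 76 genes of mitochondrial gene expression tested in A375, 22 were at least 2-fold lower and 2 higher (median -0.62). The shares of all genes were 16.2% lower and 15.6% higher. Of 75 in Yumm1.7, 23 were lower and 6 higher (median -0.47), beside 22.3% and 23.1% of all genes. TFAM, which packages the mitochondrial genome and is needed for its transcription, stood at 62.3 TPM in P and 15.8 TPM in S input of A375 (-1.71) and at 19.8 and 0.816 TPM in Yumm1.7 (-2.58). TFB2M, the transcription initiation factor, was at -1.03 and -1.28. POLRMT, the mitochondrial RNA polymerase, was at -0.55 in A375 and, at 17.0 TPM in P and 27.0 TPM in S, at 1.57 in Yumm1.7. The ends of the transcription list were TFB1M (-2.01), an rRNA methyltransferase, and MTERF2 (0.87) in A375. In Yumm1.7 Polg, the mitochondrial DNA polymerase, was at -1.68.

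Genes of RNA processing and stability had a median of -0.87 in A375, with 15 of 36 lower against 16.2% of all genes and 1 higher against 15.6%. In Yumm1.7 it was -0.50, with 11 of 36 lower against 22.3% and 3 higher against 23.1%. LRPPRC and SLIRP, which together stabilise mitochondrial mRNAs, were at -1.29 and -1.09 in A375. In Yumm1.7 they were at 0.35 and 0.68 relative to the median gene, although their TPM was lower in S, at 14.2 against 21.9 and 53.2 against 63.6. PNPT1, a mitochondrial exoribonuclease, was at -1.57 and -1.94, GRSF1, an RNA granule protein, at -1.01 and -2.11, and FASTKD5, which is needed to process ends not flanked by tRNAs, at -1.09 in A375 and listed at 0 in S input of Yumm1.7, from 3.37 TPM in P. Among genes averaging 5 TPM or more, PRORP, the protein that cuts the 5′ ends of mitochondrial tRNAs, was the highest of the A375 list at 2.28, from 3.25 to 16.9 TPM, and MRM2, an rRNA methyltransferase, the lowest at -2.33. In Yumm1.7 Fastk was highest at 1.87 and Trmt61b, an RNA methyltransferase, was listed at 10.8 TPM in P and at 0 in S. Translation factors were nearer to the median gene, at -0.32 in A375 (3 of 22 lower, 1 higher) and 0.03 in Yumm1.7 (3 of 22 lower, 1 higher). Those counts were below the shares of all genes just given. TUFM, the mitochondrial elongation factor, was at -0.26 and -0.08, and the initiation factors MTIF2 and MTIF3 at -1.17 and 1.37 in A375 and at 0.27 and 0.55 in Yumm1.7. The highest and lowest of that list in Yumm1.7 were Mtg2 (2.46), a ribosome assembly GTPase, and Tsfm (-2.31), the exchange factor for TUFM.

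The nuclear subunits of complexes I, III, IV and V had medians above the median gene in S in all 3 sources. In S against P their median was 0.28 in input, 0.31 in monosomes and 0.65 in polysomes of A375, with 4, 8 and 17 of 75 higher and 1, 0 and 1 lower. The counts of higher genes in input and monosomes were below the shares of all genes, 15.6% and 11.7%, and that in polysomes stood beside 16.5%. The complex III genes of A375 monosomes had a median of -0.22. In Yumm1.7 it was 0.73, 0.92 and 1.69, with 31, 35 and 56 of 72 higher, beside 23.1%, 25.4% and 24.1% of all genes, and 3, 3 and 0 lower, though the polysome median was 0.16 in the values as deposited. In polysomes the mitochondrial mRNAs had medians of 1.45 and 5.00, and in A375 monosomes -1.91, on the other side of the median gene from the nuclear subunits. The nuclear extremes in S against P input were NDUFA13 (1.56) and ATP5F1A (-1.32), the alpha subunit of ATP synthase, in A375, and Ndufv3 (3.93) and Uqcrc2 (-1.53), a complex III core protein, in Yumm1.7. Between monosomes and polysomes, nuclear subunits had medians near the median gene in A375 (-0.04 in P and 0.34 in S) and above it in Yumm1.7 S (1.41, 44 of 72 higher, beside 13.2% of all genes).

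Copies of mitochondrial genes inserted in the nuclear genome can take reads of similar sequence. In A375 18 rows carried symbols of such copies, and they summed to between 0.0553% and 0.373% of the TPM of all mitochondrial genes. No row of the Yumm1.7 table has such a symbol.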

How the data were processed

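RNA sequencing was analysed for 12 libraries, 1 for each combination of line, state and source. The deposited values are TPM per gene, computed by the authors and given in 1 table per line. Genome builds were GRCh38 (hg38) and GRCm38 (mm10), per the submitters' processing notes; the aligner, quantifier, annotation and use of strand were not given in the sources used here. From TPM, log2(TPM + 1) differences were computed for genes averaging 1 TPM or more, relative to their median, and counted at 2-fold in 10 comparisons per line. Shares are percent of 1000000 TPM. With 1 library per group no test was run, and read depth is unknown. Members were rows starting with MT-, and all mRNAs and rRNAs, tRNA genes averaging 10 TPM or more, and the 4 highest and lowest of each nuclear list (at least 5 TPM) plus 11 fixed genes could be named. The members and the lists were chosen with earlier results of these data known. Human coordinates and sequences are from GENCODE release 29; mouse ones were not used here. The calculation was tested on simulated data. Software was Python 3.11.15, pandas 2.3.3, numpy 2.4.6, scipy 1.17.1 and matplotlib 3.10.9. Alternatives were other scalings, pseudocounts, filters and denominators, some added after seeing the data.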

Additional observations from a re-analysis of the deposited data

Results flagged for a closer look

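The values below lay at least 2-fold from the median gene in opposite directions in A375 and Yumm1.7 under the same comparison. Each rests on 1 library per group, and the difference between the lines was not tested.

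In S against P monosomes, ATP6 was at -2.26 in A375 and 1.66 in Yumm1.7, cytochrome b at -1.90 and 1.52, ND2 at -2.07 and 1.48, and ND4 at -1.91 and 3.04. These 4 mRNAs belong to complexes V, III and I. Of the tRNA genes in that comparison, the arginine gene MT-TR was at 1.95 in A375 but -1.47 in Yumm1.7, and MT-TT, for threonine, at 1.01 and -1.41. In S against P polysomes MT-TR was at 1.34 and -1.04. In S against P input, MT-TL1 was at 1.87 and -2.26 and the proline gene MT-TP at 1.49 and -1.97.

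Between polysomes and monosomes of S, CO2 was at -2.03 in A375 and 2.03 in Yumm1.7, CO3 at -1.87 and 3.09, and MT-TS1, next to CO1, at -2.67 and 1.97. Between polysomes and input of S, MT-TH was at 2.57 and -1.03, MT-TL2 at 2.20 and -1.02 and MT-TY at 1.02 and -2.66. Between monosomes and input of S, MT-TL2 was at 2.59 and -2.29, MT-TS1 at 1.999 and -1.96 and MT-TS2 at 3.46 and -1.97. The change of the polysome-to-monosome difference from P to S was -1.54 for RNR1 in A375 and 5.25 in Yumm1.7.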

How the results depend on the processing

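No paired analysis was possible because each group has 1 library and the samples carry no replicate numbers; for the same reason no library could be left out. The medians of the mRNAs kept their side of 2-fold in 154 of 160 alternatives, where a change of sign within 2-fold counted as kept. Counts of mRNAs stayed within 1.5 times in 110 of 120, and the cause of the changes below was not tested. Relative to the nuclear respiratory genes, A375 S against P polysomes gave 0.80 with 6 mRNAs higher, Yumm1.7 S against P input 0.58, and Yumm1.7 monosomes against input of P 1.28 with 9 higher; counts of higher mRNAs in Yumm1.7 became 3 for S against P monosomes, 3 for polysomes against monosomes of S and 1 for polysomes against input of S. As deposited, Yumm1.7 S against P input gave 0.37 with 5 higher, and after rescaling to genes outside the mitochondrial genome 0.65. In A375 S, polysomes against monosomes gave -1.11 without ATP8, ND4L and ND6 and 2 (as deposited) or 3 (no filter) lower mRNAs, and monosomes against input gave 6 (as deposited) or 2 (no filter) lower. Nuclear genes as deposited in Yumm1.7 gave 0.16 for respiratory subunits in S against P polysomes and, for mitochondrial gene expression, -1.40 in input and -1.90 in polysomes.

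Single tRNA genes and ND5 and ND6, examined under scalings chosen after the data were seen, reversed in Yumm1.7. In S against P polysomes the heavy-strand tRNA median was -0.23 as deposited and -0.38 relative to the nuclear respiratory genes, MT-TL2 -1.37 and -1.53, and MT-TG -1.10 under the latter. In polysomes against monosomes of S relative to those genes, the MT-TH, MT-TS2 and MT-TL2 set was at -0.34, MT-TS2 at -0.34, MT-TL2 at -0.10, MT-TL1 at -1.39, MT-TW at -1.36 and ND5 at -0.32. As deposited, the change of that difference between states was -0.33 for ND6 and -1.13 for MT-TG.

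Shares moved with the denominator. As percent of listed TPM, A375 P monosomes held 35.5% mRNA, 3.09% rRNA and 3.79% tRNA. Without mitochondrial rRNA and tRNA in the denominator, mRNAs took 38.1% of A375 P and 15.1% of A375 S monosomes. As percent of listed TPM outside the mitochondrial genome, rRNA was 5.36% in A375 P monosomes, 4.22% in S input and 67.2% in S monosomes, and 0.897%, 1.64% and 0.176% in Yumm1.7 S input, monosomes and polysomes; tRNA was 6.58%, 2.90% and 9.75% in the same A375 libraries and 2.27%, 2.13% and 1.26% in the same Yumm1.7 libraries. The log2 rRNA-to-mRNA ratio with RNR2 alone was -2.36 in A375 P input, 1.25 in A375 S monosomes, and -6.90, -5.68 and -8.82 in input, monosomes and polysomes of Yumm1.7 P and -6.60, -5.91 and -9.22 in those of S. Weighted by gene length, which was computed for A375 only, it was -1.15, -2.80 and -4.36 in P and -1.54 in S input and -1.63 in S polysomes. The unknown depth leaves no counting error for any value, and low genes differ by less on the log2(TPM + 1) scale than in TPM.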
